A study of Mus musculus with 4 samples.

Results

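Nipal4, Gbp2, S100a6, Ptprt, Cpz, Xkrx, Parm1, Fcgr2b and Mettl21e were 9 of the 19840 genes in a comparison of naive mouse embryonic stem cells that differed in their level of the long noncoding RNA Lncenc1. They were chosen by name from the contrast itself, as annotated genes with few reads in the group with more Lncenc1 and a strong gain in the other, so their difference between the groups is given as a description and supports nothing. The cells were pluripotent cells cultured in 2i/LIF, which keeps them naive through 2 kinase inhibitors and the cytokine LIF, and all 4 libraries came from cells infected with a lentivirus and selected with puromycin for 2 days. The virus carried a control hairpin (shCtrl, 2 libraries) or a hairpin against Lncenc1 (shLincenc1 in the labels, 2 libraries). The protocols name 2 cell lines, E14TG2a and R1, and 2 hairpins designed per target, and the labels tie no library to a line, a hairpin or a separate culture, so the spread between libraries may be technical. The deposited table does not say which group is the numerator of its fold change, and the groups are therefore named here by their Lncenc1 level, with libraries H1 and H2 in the Lncenc1-high group and L1 and L2 in the Lncenc1-low group.

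The libraries were unequal in depth. Whole read counts recovered from the deposited means summed to 26131920 in H1, 10824338 in H2, 10980851 in L1 and 10450907 in L2. Normalized reads are these counts divided by a size factor per library (1.95, 0.797, 0.811 and 0.809). Lncenc1 itself stood at 6400 (H1) and 7250 (H2) normalized reads in the high group and at 2126 (L1) and 2121 (L2) in the low group, a 3.21-fold difference. All 8 markers of pluripotent stem cells were detected, and none differed at an adjusted p under 0.05 in the authors' deposited table (2 had an unadjusted p under 0.05), but all 8 had a log2 fold change above 0 (median 0.30, high over low). Their summed levels were 81425 (H1) and 77835 (H2) normalized reads against 68416 (L1) and 65738 (L2), so the markers lay higher in the high group. The part of this in the results below was not tested. Fewer cells expressing a gene and less RNA per cell cannot be told apart in these bulk libraries.

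The 9 genes belong to different families and are best known outside pluripotent cells. Nipal4 codes for a membrane protein of the NIPA magnesium transporter family that is needed for the lipid barrier of the epidermis. Gbp2 codes for a guanylate-binding protein, a GTPase induced by interferon gamma. S100a6 codes for calcyclin, a small calcium-binding protein, and Ptprt for a receptor-type tyrosine phosphatase that takes part in cell adhesion. Cpz codes for a secreted metallocarboxypeptidase with a Frizzled-like domain that binds Wnt proteins. Xkrx belongs to the XK-related membrane proteins, a family that includes phospholipid scramblases. Parm1 codes for a mucin-like membrane protein, Fcgr2b for the inhibitory Fc receptor of B cells and myeloid cells, and Mettl21e for a lysine methyltransferase of skeletal muscle.

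Promoter windows from RefSeq, 250 bases before to 50 after the gene's start on GRCm38.p6, were at hand for 8 of the 9 genes, all but Mettl21e. The 4 printed here span the range of levels and base composition, from genes without a read in the Lncenc1-high group (Gbp2, S100a6) through the most CpG-rich window (Ptprt) to the most abundant member (Fcgr2b). They run 5′ to 3′ on the gene's strand, and capitals mark matches to any of 9 motifs searched on both strands.
Gbp2, chr3:142620413-142620712, plus strand: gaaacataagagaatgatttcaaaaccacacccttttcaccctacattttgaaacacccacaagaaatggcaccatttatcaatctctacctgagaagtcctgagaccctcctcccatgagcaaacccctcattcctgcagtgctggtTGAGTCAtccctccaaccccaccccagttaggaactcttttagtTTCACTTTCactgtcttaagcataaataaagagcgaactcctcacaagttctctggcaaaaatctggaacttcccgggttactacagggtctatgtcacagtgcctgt
S100a6, chr3:90612644-90612943, plus strand: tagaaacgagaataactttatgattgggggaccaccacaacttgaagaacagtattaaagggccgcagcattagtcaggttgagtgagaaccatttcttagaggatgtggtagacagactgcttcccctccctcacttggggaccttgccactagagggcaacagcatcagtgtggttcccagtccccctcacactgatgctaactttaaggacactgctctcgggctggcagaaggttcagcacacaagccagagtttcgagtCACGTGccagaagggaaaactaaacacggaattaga
Ptprt, chr2:162661098-162661397, minus strand: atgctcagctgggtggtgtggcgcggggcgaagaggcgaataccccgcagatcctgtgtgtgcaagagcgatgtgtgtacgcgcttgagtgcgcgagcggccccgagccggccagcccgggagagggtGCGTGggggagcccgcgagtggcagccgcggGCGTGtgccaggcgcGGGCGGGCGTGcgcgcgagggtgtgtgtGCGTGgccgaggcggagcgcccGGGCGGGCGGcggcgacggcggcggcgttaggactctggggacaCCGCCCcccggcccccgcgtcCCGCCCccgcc
Fcgr2b, chr1:170976022-170976321, minus strand: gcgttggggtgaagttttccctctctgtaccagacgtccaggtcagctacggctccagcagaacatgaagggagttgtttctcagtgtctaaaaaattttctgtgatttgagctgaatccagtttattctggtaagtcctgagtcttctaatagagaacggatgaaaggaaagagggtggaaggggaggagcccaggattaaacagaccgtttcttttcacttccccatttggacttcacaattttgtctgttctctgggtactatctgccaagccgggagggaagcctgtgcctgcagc
The Gbp2 window held TGANTCA, the AP-1 motif, and GAAANNGAA, an interferon-response type motif, which occurred in 7.81% and 8.56% of all 32841 promoter windows. The S100a6 window held CACGTG, the E-box, found in 7.15% of all windows. The Ptprt window held 5 matches to the GC box GGGCGG (some overlapping) and 4 to GCGTG, the core of the hypoxia and dioxin response elements. The Fcgr2b window held none of the 9 motifs. No motif was shared by more than 3 of the 8 windows. GGGCGG occurred in Ptprt, Cpz and Nipal4 (35.7% of all windows), TGANTCA in Gbp2 and Xkrx, and GCGTG in Ptprt and Xkrx (32.4%). The letters TATAAA, TGACGTCA, TTCNNNGAA and ATTTGCAT were in none of the 8 windows and in 13.6%, 1.79%, 8.30% and 1.74% of all windows. A match is a description of the letters and shows no binding.

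The promoters did not share a CpG class. The ratio of observed to expected CpG dinucleotides was 1.06 in Ptprt, which held 46 CpGs and lay at the 96.7th percentile of all windows. Gbp2 was at the other end with 2 CpGs, a ratio of 0.147 and the 20.4th percentile. The other 6 lay between, with S100a6 at 0.329, Fcgr2b at 0.353, Xkrx at 0.390, Parm1 at 0.493, Cpz at 0.505 and Nipal4 at 0.625, around the median of 0.384 over all windows.

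**Figure D1:**
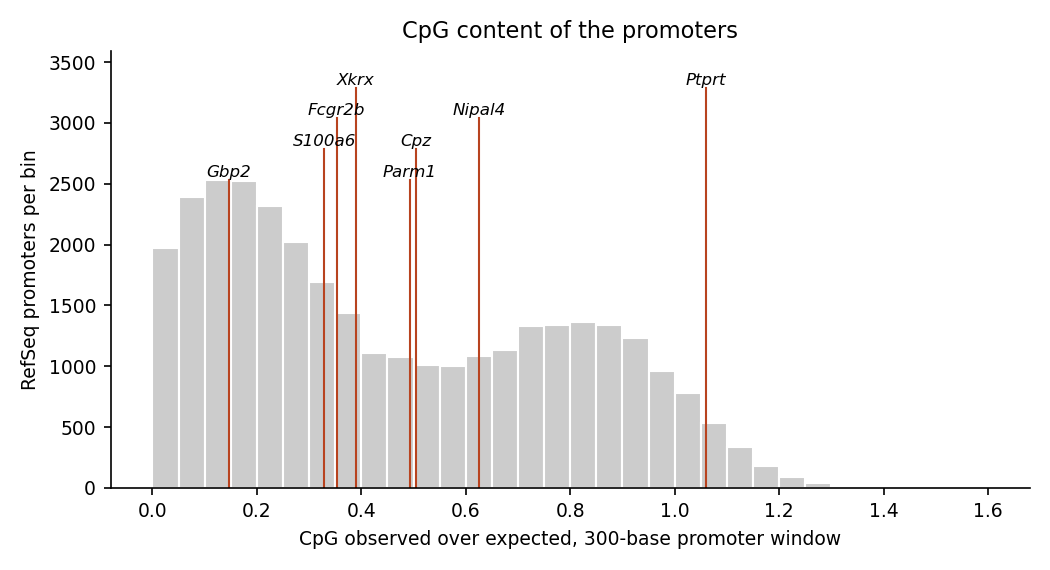
Observed over expected CpG in 300-base promoter windows (x axis) for all RefSeq promoters (grey bars, promoters per bin on the y axis) and for 8 of the genes (red lines). The genes spread from Gbp2 at 0.147 to Ptprt at 1.06, across both humps of the distribution.

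The levels divided the 9 genes into 3 that gave no read in the Lncenc1-high group, a pair with a handful of reads, and 4 that were plainly detected there. Nipal4 gave 0 reads in H1 and H2, 16 in L1 and 39 in L2, or 19.7 and 48.2 normalized reads in the low group. S100a6 gave 0 and 0 reads against 10 and 24 (12.3 and 29.7 normalized). Gbp2 gave 0 and 0 reads against 1 and 37 (1.23 and 45.7 normalized), so that its level in the low group came from L2 almost alone. A count of 0 over both high libraries allows up to 3 reads, or 1.09 normalized reads pooled over H1 and H2. Against that floor the observed level of the low group was 31.1-fold higher for Nipal4, 21.5-fold for Gbp2 and 19.2-fold for S100a6. The exact 95% lower limit of the ratio, which also covers the counting error of the low group, was 24.4 for Nipal4, 16.6 for Gbp2 and 14.8 for S100a6. Of the 14043 tested genes with recovered counts, 5 had no read in either high library, namely these 3, Gbp2b and the predicted gene Gm10720. Tested genes had means of at least 8.36 normalized reads, so such a gene could enter only through its low-group reads. Untested genes without a high-group read, such as Ptpre (16 reads in L1 and 9 in L2), are not in this count.

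Ptprt and Cpz were nearly without reads in the Lncenc1-high group. Ptprt gave 0 reads in H1, 2 in H2, 8 in L1 and 84 in L2, which is 0, 2.51, 9.86 and 103.8 normalized reads. Cpz gave 4, 0, 6 and 105 reads, or 2.05, 0, 7.39 and 129.8 normalized reads. In both genes L2 stood far above the other 3 libraries, and L1 lay 3.93-fold (Ptprt) and 3.60-fold (Cpz) above the higher of the H libraries. The ratio of pooled normalized reads, low over high, was 77.9 for Ptprt (exact 95% interval 20.97 to 653) and 47.0 for Cpz (17.9 to 175.5). All such intervals cover counting error only. Of 26 tested genes with at most 4 reads over H1 and H2 together, 10 had an adjusted p under 0.05, and 5 of those were the members described so far. The other 5 were Gm10720, Gm10717, Gm26818, Cyyr1 and Gm10408, none of them a member. The lower limit on the mean of tested genes shapes these counts too.

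The other 4 genes were not silent where Lncenc1 is high, and the description as nearly silent does not hold for Xkrx and Fcgr2b. Fcgr2b gave 598 and 593 reads in H1 and H2 and 5481 and 2667 in L1 and L2, or 307, 744, 6754 and 3296 normalized reads. Per kilobase of exon its high-group level, 90.8 normalized reads, was at the 56.0th percentile of tested genes, above the median gene, and its low-group level, 868, was at the 94.7th. Xkrx gave 72, 121, 1598 and 549 reads (37.0, 151.8, 1969 and 678 normalized), at the 33.8th percentile per kilobase in the high group and the 88.1st in the low group. Parm1 gave 58, 10, 76 and 285 reads, or 29.8, 12.5, 93.7 and 352 normalized. Mettl21e gave 22, 11, 117 and 54 reads, or 11.3, 13.8, 144 and 66.7 normalized. Parm1 and Mettl21e were low where Lncenc1 is high, at the 8.13th and 6.09th percentiles per kilobase. Pooled normalized reads were 11.6-fold higher in the low group for Fcgr2b (10.9 to 12.3), 18.8-fold for Xkrx (16.3 to 21.9), 8.99-fold for Parm1 (6.92 to 11.8) and 8.78-fold for Mettl21e (6.02 to 13.2).

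**Figure D2:**
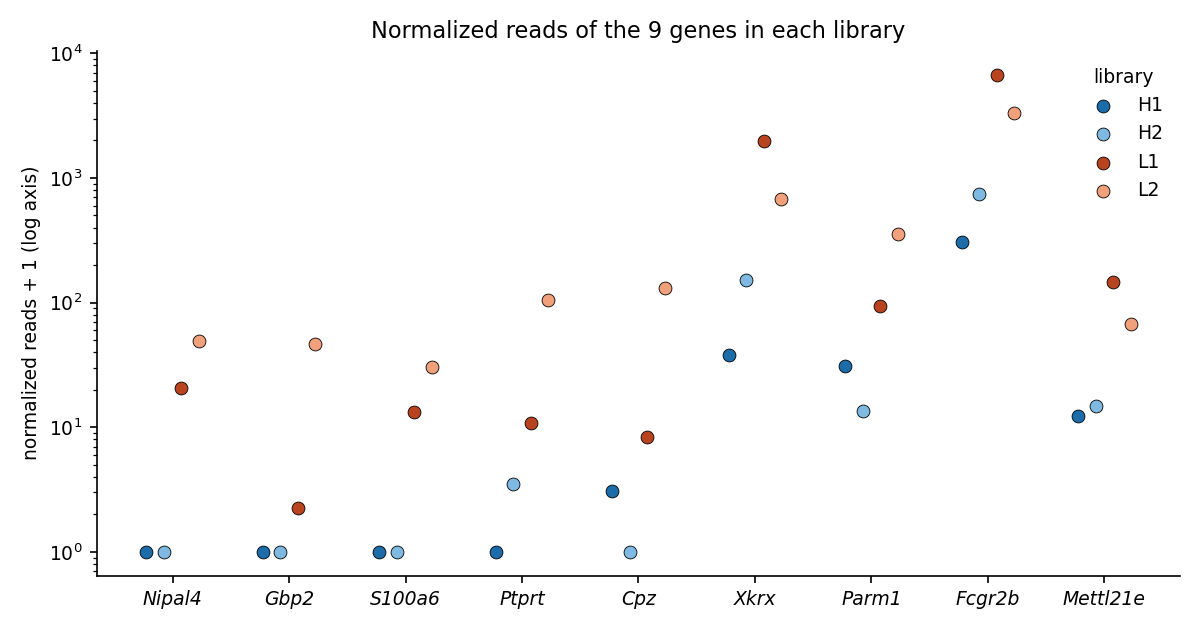
Normalized reads plus 1 (y axis, log scale) of the 9 genes (x axis) in the libraries of the Lncenc1-high group (H1, H2, blue) and the Lncenc1-low group (L1, L2, red), 1 point per library. Nipal4, Gbp2 and S100a6 sit at 0 reads in both H libraries, and Fcgr2b stays at 307 normalized reads or more in every library.

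In the low group the order per kilobase of exon ran from Fcgr2b (868 normalized reads) and Xkrx (438) through Parm1 (44.0), Cpz (30.5), Mettl21e (26.6) and S100a6 (15.4) to Nipal4 (9.86), Gbp2 (9.33) and Ptprt (4.51). Cpz, at the 33.3rd percentile, and the 5 genes after it stayed in the lower part of the tested genes even there. The L1 and L2 levels of neighbours in this order overlapped for every pair except Xkrx and Parm1.

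Both L libraries lay above both H libraries in 9 of 9 genes, against 20.7% of all tested genes in this direction. In the authors' deposited table all 9 passed an adjusted p under 0.05 with a higher level in the low group, where 1.02% of tested genes passed in that direction and 1.53% in either. These counts follow from the choice of the genes. The deposited log2 fold changes, high over low, were -7.85 ± 1.81 (SE, 2 libraries per group) for Nipal4, -7.31 ± 2.12 for Gbp2 and -7.15 ± 1.99 for S100a6, with adjusted p of 0.0031, 0.0416 and 0.029. Where a group has no read, this fold change depends on the fit and is no bound. It was -5.95 ± 1.43 for Ptprt (adjusted p 0.0053) and -5.75 ± 1.31 for Cpz (adjusted p 0.0028). The 4 more abundant genes had -3.82 ± 1.12 (Xkrx, adjusted p 0.045), -3.35 ± 0.61 (Parm1, 3.15e-05), -3.26 ± 0.78 (Fcgr2b, 0.0052) and -3.09 ± 0.66 (Mettl21e, 0.00081). The median over all 9 genes of -5.75 stands beside -1.62 over the other 135 called genes of this direction and -0.01 over all 14070 tested genes.

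**Figure D3:**
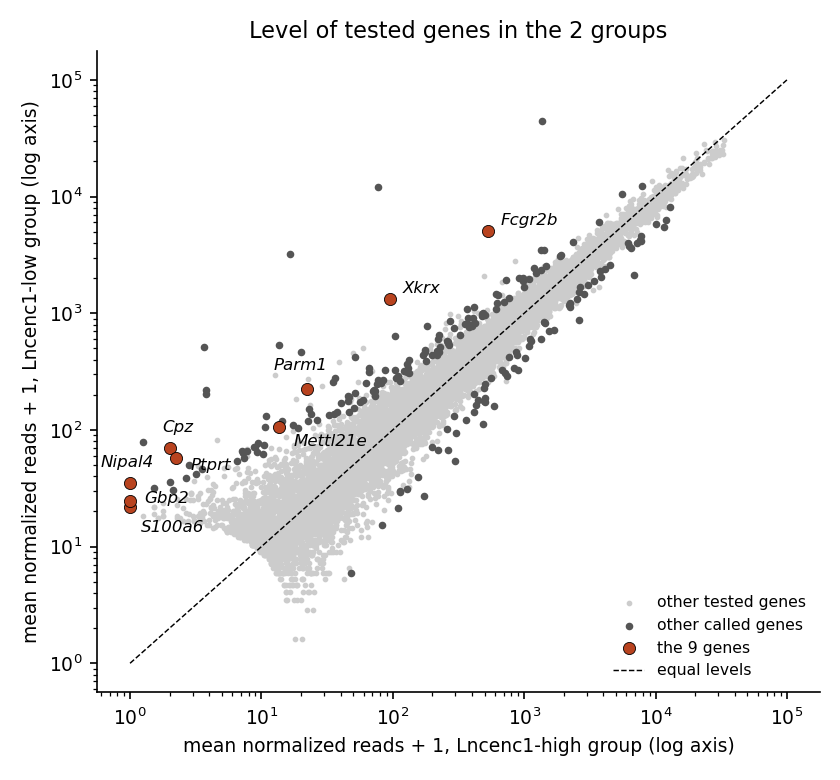
Mean normalized reads plus 1 in the Lncenc1-high group (x axis) and the Lncenc1-low group (y axis), both on log scales, for tested genes with recovered counts (light grey), other called genes (dark grey) and the 9 genes (red). The 9 genes lie above the line of equal levels, and of these Nipal4, Gbp2 and S100a6 sit at the left edge, at 0 reads in the high group.

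Ranked by their level in the high group among the 142 called genes of this direction with recovered counts, Gbp2, Nipal4 and S100a6 tied with Gm10720 for the lowest level, 0 reads. Cpz tied with Cyyr1 a little above, Ptprt took rank 10, Mettl21e rank 31, Parm1 38, Xkrx 72 and Fcgr2b 117. The named genes next to them that were not members included Cyyr1 (4, 0, 24 and 32 reads in H1, H2, L1 and L2) and Fas (4, 1, 9 and 52 reads) at rank 11. Around Mettl21e and Parm1 lay Cyp1a1 at rank 30, Dsc2 at 33, Perp at 37 and Alcam at 39. Dmrt1 and Slc39a14 flanked Xkrx, and Lage3 and Ddah1 flanked Fcgr2b. The choice thus passes over genes with similar or lower levels in the high group.

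The reads in L1 and L2 entered the choice through the gain in the low group, and their ratio is given as a description. Nipal4, Gbp2, S100a6, Ptprt, Cpz and Parm1 were higher in L2, and Xkrx, Fcgr2b and Mettl21e in L1. The ratio of normalized reads in L2 to those in L1 was 37.1 for Gbp2 (exact 95% interval 6.26 to 1505), 17.6 for Cpz (7.80 to 48.9) and 10.5 for Ptprt (5.11 to 25.2). It was 3.76 for Parm1 (2.91 to 4.91), 2.44 for Nipal4 (1.33 to 4.69) and 2.41 for S100a6 (1.11 to 5.64). In the other direction L1 exceeded L2 by 2.90-fold for Xkrx (2.63 to 3.20), 2.16-fold for Mettl21e (1.55 to 3.04) and 2.05-fold for Fcgr2b (1.96 to 2.15). Over all tested genes the median ratio of L2 to L1 was 1.00, and the central 90% lay between 0.380 and 2.57. Gbp2, Cpz, Ptprt, Parm1 and Xkrx fell outside that band. Among the other called genes of the same direction 89 of 133 (66.9%) were higher in L2, against 50.3% of tested genes.

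**Figure D4:**
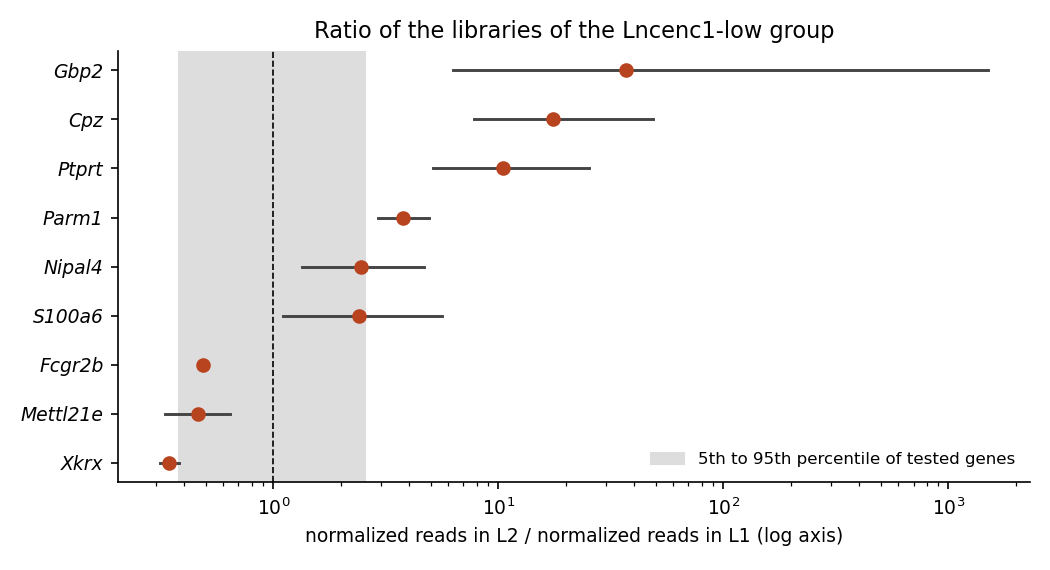
Ratio of normalized reads in L2 to those in L1 (x axis, log scale) for each of the 9 genes (y axis), with exact 95% intervals that cover counting error only. The grey band spans 0.380 to 2.57, the central 90% of tested genes, and the dashed line marks equal levels in L1 and L2. Gbp2, Cpz, Ptprt and Parm1 lie to the right of the band and Xkrx to its left.

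The libraries of the high group also differed for genes with enough reads there. Xkrx was 4.11-fold (3.04 to 5.58) and Fcgr2b 2.42-fold (2.16 to 2.72) higher in H2 than in H1, whereas Parm1 was 2.37-fold (1.20 to 5.21) higher in H1. The ratio of H2 to H1 for Mettl21e was 1.22 (0.535 to 2.63), not distinguishable from 1 at this depth. The dispersion that the deposited standard errors imply for the 6 genes with reads in both groups was between 0.159 (Parm1) and 0.596 (Xkrx), with a median of 0.398. Its median was 0.056 over the other called genes of this direction and 0.046 over all tested genes. The lowest of the 6 values was above both medians. These sets were not matched for level. The median of the mean normalized reads was 34.8 over the 9 genes, 241 over the other called genes and 310 over all tested genes.

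Several calls did not hold when 1 library was left out, and the part of the smaller group in this was not tested. A negative binomial refit to the recovered counts at those dispersions called 6 of the 6 genes with reads in both groups, where it called 0.947% of all fitted genes in this direction. Without L2 it called Fcgr2b and Mettl21e (background 0.214%), with adjusted p of 0.037 and 0.0051, and the log2 fold change of Cpz shrank to -2.54 (adjusted p 1.00) and that of Ptprt to -3.43 (adjusted p 0.836). Xkrx without L2 had a larger log2 fold change, -4.39, and an adjusted p of 0.171. Without L1 it called Ptprt, Cpz and Parm1 (background 0.786%), and Fcgr2b, Mettl21e and Xkrx had log2 fold changes of -2.65, -2.43 and -2.85 with adjusted p of 0.167, 0.105 and 0.441. Without H1, the deepest library, it called only Parm1 (background 0.258%), while the log2 fold changes of Ptprt, Xkrx, Fcgr2b and Mettl21e were -4.50, -3.12, -2.76 and -2.93 with adjusted p of 0.363, 0.638, 0.283 and 0.0994. Without H2 it called Xkrx, Parm1, Fcgr2b and Mettl21e (background 0.385%), and Cpz had an adjusted p of 0.0782. Cpz without H1 and Ptprt without H2 could not be fitted, since no high-group read was left, and Nipal4, Gbp2 and S100a6 could not be fitted for the same reason. Parm1 was thus called whichever of H1, H2 or L1 was left out, and not without L2 (adjusted p 0.405), and the direction was the same in all these fits. With limma voom, which estimates the variance anew, 0 of the 9 genes passed (adjusted p from 0.0903 for Fcgr2b to 0.509 for Cpz). Voom called 0.0285% of tested genes in this direction, and at an unadjusted p under 0.05 it had 7 of the 9 genes and 1435 genes in all.

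The relatives of the 9 genes were read from the same deposited table. Of 41 tested relatives in 8 families 2 were called, both higher in the Lncenc1-low group, where 1.02% of all tested genes were called in that direction. Relatives with means too low for an adjusted p are not in this count and went both ways. Ptpre gave 0, 0, 16 and 9 reads in H1, H2, L1 and L2, Xkr4 0, 0, 2 and 14, and Xkr9 12, 3, 0 and 0. S100a10, the annexin A2 partner, had a log2 fold change of -0.99 ± 0.23 (adjusted p 0.0036 in the deposited table), with 465, 484, 956 and 934 normalized reads in H1, H2, L1 and L2. Ptprv, a receptor-type phosphatase, had -1.64 ± 0.39 (adjusted p 0.0050), from 154, 65, 167 and 237 reads. None of the 5 NIPA relatives, 3 guanylate-binding proteins, 7 carboxypeptidases, 4 XK-related proteins, 6 METTL21-like methyltransferases and the single tested Fc receptor Fcgrt passed, of which 2 carboxypeptidases had an unadjusted p under 0.05. Their medians were 0.08 (NIPA), -0.80 (guanylate-binding), -0.94 (carboxypeptidases), -0.37 (XK-related) and 0.09 (METTL21-like), beside -0.01 over all tested genes. Nipa2, the most abundant NIPA gene, had -0.18 ± 0.24, and Mettl18, the most abundant METTL21-like gene, 0.00 ± 0.33. Where Fcgr2b reached 5481 reads in L1, the Fc receptor genes Fcgr1 and Fcgr3 had no more than 6 reads in any library, and Fcer1g, which codes for the signalling chain of the activating receptors, no more than 8.

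**Figure D5:**
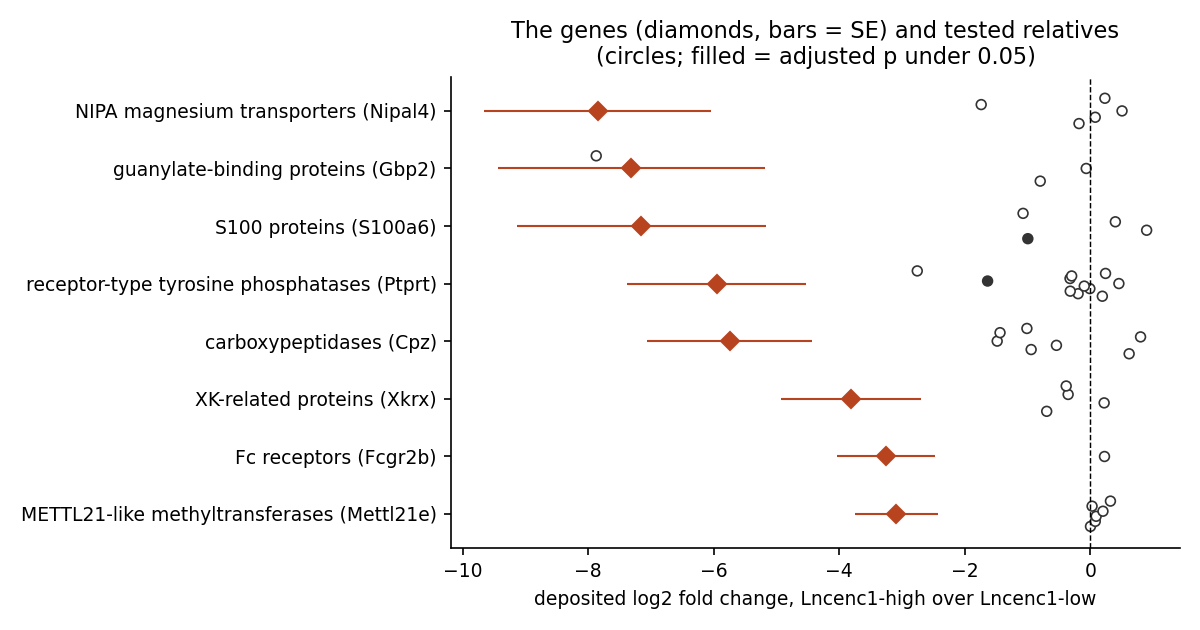
Deposited log2 fold change, Lncenc1-high over Lncenc1-low (x axis), of 8 of the genes (red diamonds, bars are the SE) and of the tested relatives in their families (circles, 1 row per family on the y axis). The 2 filled circles are S100a10 and Ptprv, the relatives with an adjusted p under 0.05. The open circle beside Gbp2 is Gbp2b, whose reads came from L2 alone.

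The pathways around the genes were described in the same way. The share of all tested genes that passed was 1.53%, so that 0 or 1 call in lists of this size lies near the background. Gbp2 is an interferon target, and of 18 other tested genes of interferon signalling, which included the receptors for interferon gamma and for type I interferon, 0 passed the deposited DESeq2 test (2 at an unadjusted p under 0.05), with a median log2 fold change of 0.03. The abundant members Socs3, a feedback inhibitor, the kinase Jak1 and the type I receptor chain Ifnar1 had 0.74 ± 0.90, 0.01 ± 0.22 and 0.01 ± 0.23. Tap1, the peptide transporter subunit, was chosen after its values were seen. It gave 76, 29, 74 and 539 reads, and its log2 fold change of -3.33 ± 1.22 did not pass (adjusted p 0.203), with L2 above the other libraries as for Gbp2. Around Nipal4, 0 of 6 tested genes of the epidermal lipid barrier passed (1 at an unadjusted p under 0.05, median -0.42), and the most abundant, the transglutaminase Tgm1, had -0.38 ± 0.44. Around Fcgr2b, 1 of 8 tested genes of inhibitory Fc receptor signalling passed, Plcg2, a phospholipase C, with -0.82 ± 0.22 (adjusted p 0.020). Inpp5d, the phosphatase that the receptor recruits, had -0.27 ± 0.27.

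Around Cpz, 1 of 15 tested Wnt ligands, Frizzled receptors and secreted antagonists passed, and it lay in the other direction. Sfrp1, a secreted Wnt antagonist with the same type of Frizzled-like domain, was higher in the Lncenc1-high group (log2 fold change 1.23 ± 0.22, adjusted p 8.99e-06), from 3282, 1355, 636 and 537 reads. The most abundant receptor, Fzd5, had 0.73 ± 0.22 (adjusted p 0.062). Beside the same 1.53% of tested genes, none of 10 tested genes around Ptprt (cadherins, catenins and its substrates Stat3 and Pxn; 0 at an unadjusted p under 0.05), 8 partners of S100a6 (1) and 9 phospholipid scramblases around Xkrx (0) passed the deposited test, with medians of -0.24, -0.07 and -0.13. Cacybp, the calcyclin-binding protein, had 0.19 ± 0.18.

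None of the tested genes next to the 9 on their chromosomes was called. The nearest named genes with a row on either side numbered 18. Of these 12 were tested and 0 passed the deposited DESeq2 test, with a median log2 fold change of -0.11 and a background of 1.53% called. Trmt44, beside Cpz, was alone in having an unadjusted p under 0.05 (log2 fold change 0.66 ± 0.23, adjusted p 0.157). Adam19 and Cyfip2 beside Nipal4 had -0.41 ± 0.25 and 0.23 ± 0.33. Chd6 and Srsf6 beside Ptprt had 0.05 ± 0.19 and -0.10 ± 0.18, and Cstf2 and Trmt2b beside Xkrx had -0.02 ± 0.19 and -0.39 ± 0.45. Fcrlb and Fcgr3, on either side of Fcgr2b, had at most 6 reads in any library. S100a16 and S100a7a, on either side of S100a6, had at most 11. Btc beside Parm1 gave 3, 0, 15 and 2 reads in H1, H2, L1 and L2, and Hmx1 beside Cpz 0, 0, 2 and 0. Neither Btc nor Hmx1 was tested. Gbp2b, beside Gbp2, had 0, 0, 0 and 56 reads, all from L2 as nearly all reads of Gbp2 were, and a log2 fold change of -7.87 ± 4.79 (adjusted p 0.729). Gbp2 and Gbp2b are close paralogues, and the sources used here do not say how reads that match both were counted.

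Annotated genes overlapped 5 of the 9. Ptprtos, antisense to Ptprt, went the other way, with 176, 49, 27 and 19 reads and a log2 fold change of 1.43 ± 0.64. The libraries were strand-specific, but no source used here states the strand setting of the counting, so the reads of Ptprt and Ptprtos can be told apart only if it was used. Nox1, on the strand of Xkrx, had 14, 0, 7 and 7 reads, far below Xkrx. Gm38204 at Fcgr2b, Gm15833 at Mettl21e and Mir6381 at Gbp2 had no row, so no reads can be given for them.

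The named genes nearest in pattern were found by the Euclidean distance between log2(normalized reads + 1) over the 4 libraries. Each gene was centred on its mean. Only tested genes with recovered counts were compared. Genes with provisional names, such as predicted genes of the Gm series, were left out and may lie closer. Nipal4 and S100a6 were each other's nearest gene (distance 0.66). Next came Perp for Nipal4 (1.22) and Ltb4r2 for S100a6 (0.77). Anxa3 was nearest to Gbp2 (0.79) and to Ptprt (0.95), with 16, 12, 33 and 440 reads. Gbp2b came next for Gbp2 (1.27) and Fgfbp1 for Ptprt (1.10). Cpz was nearest to Cyp1b1 (1.06), a cytochrome P450 with 7, 0, 3 and 77 reads, and then to Perp (1.34). Parm1 was nearest to Ttll10 (0.15) and Nkx2-9 (0.23). The genes higher in L1 had other neighbours. Xkrx was nearest to Serpina10 (0.59; 38, 62, 512 and 230 reads) and Erg (0.85), Fcgr2b to Col4a4 (0.44) and Erg (0.46), and Mettl21e to the growth factor receptor Fgfr2 (0.53; 73, 24, 250 and 162 reads) and Slc23a1 (0.57). With 4 libraries these distances describe the levels and nothing more.

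Markers of other cell types are given as summed levels, and their part in the results was not tested. No gene of the 7 non-pluripotent lists given here passed the deposited DESeq2 test, which 1.53% of all tested genes passed, and 3 had an unadjusted p under 0.05. Few of the listed genes were tested, namely 2 myeloid, 0 keratinocyte, 3 fibroblast, 3 skeletal muscle, 4 trophoblast, 3 neuron and 3 endoderm markers. In lists of this size 0 calls lies near the background. Of 8 myeloid markers, Lyz2 had no row, and Ptprc, Csf1r, Adgre1, Tyrobp and Fcer1g had at most 8 reads in any library. The summed level was 241 and 404 normalized reads in the high group against 229 and 250 in the low group. Most of that sum was Cd68 (213 and 335 against 192 and 226), and most of the rest was Itgam. Of 7 keratinocyte markers, Krt1, Krt5 and Krt14 had no row, and the sum was between 8.73 and 13.8 in every library. Of 8 fibroblast markers, Dcn, Lum and Postn had no row, and the sum was 89.3 and 84.1 against 67.8 and 133. The summed skeletal muscle markers ran from 7076 (L1) to 10709 (L2), nearly all of it Ttn, and Myod1 had no row. Trophoblast markers summed to 735 and 582 against 953 and 1350, without a row for Elf5, and 2 of the 4 tested had an unadjusted p under 0.05. Neuron markers summed to 1663, 1100, 2419 and 688 and endoderm markers to 3212, 4292, 2452 and 1036 in H1, H2, L1 and L2. L1 was above L2 in both sums, each of which was mostly 1 gene. Tubb3 gave 1516, 967, 2231 and 507 of the neuron sum, and Lama1 3167, 4257, 2402 and 986 of the endoderm sum. Of the other tested genes in these lists, Map2 and Gata4 were higher in L2, and Elavl4 and Dab2 in L1.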

How the data were processed

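Per the labels' protocols, ribosomal RNA was removed from total RNA and 4 stranded libraries were sequenced. Named in the submitters' processing notes are the build mm9 and the tools HTSeq, TopHat2 and DESeq2 1.8.2. No source used here gives the annotation or the strand setting. Per the file headers, the deposited table holds a mean normalized read count per gene (a signal), the log2 fold change with its log2 standard error, the Wald statistic (a score), and the p-value and adjusted p-value, all computed by the authors. An adjusted p was present for 14070 genes with means of at least 8.36.

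Read counts per library were recovered as 4 whole numbers that reproduce a mean to 15 digits. Refitting them returned the deposited log2 fold change to within 0.00001 for 13901 of 14038 tested genes that had a read in each group. A wider limit of 0.001 was allowed where only 1 combination of whole numbers was found. Genes without a read in the high group, such as Nipal4, Gbp2 and S100a6, could not be refitted, so their counts lack this check. The recovery gave counts for 19811 of 19840 genes. The planned count test was not the main one, since the table holds no count columns. A negative binomial Wald refit used the dispersion implied by each deposited standard error (scipy 1.17.1), and limma 3.58.1 gave voom. Scripts were tested on simulated data. In fits without 1 library, a library left alone in its group is taken to vary like the rest. Each library's 3-read floor is 1.54 (H1), 3.76 (H2), 3.70 (L1) and 3.71 (L2) normalized reads.

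The 9 genes, the families, pathways and markers were chosen with earlier results of these data known. Named are the 9 genes, their neighbours, their 2 nearest patterns, the genes next to them in rank, and from each list genes past the adjusted p and up to 3 abundant others. Ptpre, Xkr4 and Xkr9 were named after their values were seen. Levels per kilobase use exon lengths of the GENCODE annotation, and promoters come from RefSeq, GRCm38.p6, neither the authors' build. The result of the B-cell marker list is not reported here.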

Additional observations from a re-analysis of the deposited data

How the results depend on the processing

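The direction of all 9 genes was the same under every alternative that gave a value, which follows from their choice and supports nothing. Both L libraries lay above both H libraries in all 9, which left these alternatives no room to turn the sign. The authors' deposited table called 215 genes. The negative binomial refit called 203, scaling by library totals 229 and adjustment without the filter on low means 178, the last with 7 of the 9 genes, since Gbp2 (adjusted p 0.0586) and Xkrx (0.0640) no longer passed. At an adjusted p under 0.01 6 of the 9 genes passed, and at a 4-fold minimum 9. The share of all tested genes at these thresholds was not computed, and both counts follow from the choice of the genes. Leaving out 1 library, the refit called 54 genes with H1 omitted, 77 with H2 omitted, 193 with L1 omitted and 45 with L2 omitted, and of the 6 genes with reads in both groups 1, 4, 3 and 2. Limma voom called 6 genes and 0 of the 9. Voom without each library in turn, added after seeing the data, ranged from 0 (without H1 or H2) to 1597 genes (without L1; 722 without L2) and from 0 to 9 of the 9 genes (5 without L2). The cause of these swings was not tested. These fits have a single residual degree of freedom. Library totals moved the median log2 fold change of all genes from -0.01 to -0.03, and 1 of 27 levels and ratios by more than its error, the ratio of L2 to L1 for Fcgr2b, from 0.488 to 0.511. No paired analysis was possible because the recovered libraries carry no replicate number. Depth limits the 5 genes with at most 4 reads in the Lncenc1-high group, whose fold changes are known only within wide intervals or as lower bounds.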
